A study of Mus musculus with 6 samples.

Results

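S100 calcium-binding proteins were compared between dorsal root ganglia (DRG) and spinal cord (SC) of adult mice. The list held 10 genes: S100a1, S100a3, S100a4, S100a6, S100a8, S100a9, S100a10, S100a11, S100a13 and S100b. A probe set, the group of array oligonucleotides that together measure a transcript, was counted as a member if the platform annotation named exactly 1 gene for it and that gene was on the list. This gave 13 probe sets of 9 genes out of the 45101 probe sets of the array. S100a11 had no probe set of its own.

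The DRG samples were lumbar ganglia of both sides and the SC samples were lumbar spinal cord, all from male C57BL/6J mice aged 3 months. There were 3 arrays per tissue, each of RNA pooled from 4 mice, and the labels call the 3 samples of a tissue independent. The mice carried no named allele and received no named treatment. A pool averages its mice, so the spread between arrays is a spread between pools.

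S100 proteins are small proteins that bind calcium through paired EF-hand loops and work mostly as dimers. On binding calcium most of them expose a surface that grips a target protein, such as an annexin, a myosin or a cytoskeletal protein, and several are also released from cells and act on surface receptors. Most S100 genes stand in a single cluster. In the nervous system S100b is best known as a glial protein, of astrocytes in the central nervous system and of Schwann and satellite cells in the periphery, and S100a10 is known for carrying ion channels to the membrane of sensory neurons.

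Values are array signals on a linear scale after the authors' array scaling. A gene is called where limma's adjusted p (two-sided, Benjamini-Hochberg over 45015 probe sets) is under 0.05, and it is represented by its brightest probe set unless stated otherwise. Differences are DRG minus SC on log2(signal + 16), which makes differences of dim genes smaller. A background level was taken on each array as the 95th percentile of the signals of 48 probe sets whose genes belong to other organs, and lay between 144 and 238. Signals at or below background are not taken as expression here. Where a tissue was at or below background on all 3 arrays, the fold is a lower bound.

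Across probe sets, log2 signals of a pair of DRG arrays had a Pearson correlation of 0.966 to 0.970 and those of a pair of SC arrays 0.966 to 0.969, whereas a DRG and an SC array correlated at 0.892 to 0.898. All 15 measured sensory neuron markers were higher in DRG, and all 16 astrocyte markers and all 15 oligodendrocyte markers were higher in SC. The array scaling matters for small differences. With the deposited scaling the median difference of all probe sets was 0.08 and 69.8% of calls were toward DRG. The median and share were 0.01 and 51.0% after quantile normalization, and -0.18 and 40.1% before the authors' array scaling. Signals before that scaling already shared a level, since their mean, trimmed at both ends, was 247.2 to 247.6 on every array.

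Of the 9 measured S100 genes, 6 were higher in DRG (S100a4, S100a6, S100a9, S100a10, S100a13 and S100b), 1 was higher in SC (S100a1) and 2 were not called (S100a3 and S100a8). Calls are common in this comparison, since 31.8% of all 18187 genes were called toward DRG and 9.69% toward SC. Of the 13 probe sets, 9 were higher in DRG and 2 higher in SC, where 22.7% and 9.78% of all probe sets were, 32.4% together. A call with a difference of at least 2-fold was found for 6 of the 9 genes, beside 16.3% of all genes. The arrays of the tissues did not overlap for 6 of the 9 genes and 10 of the 13 probe sets, beside 51.7% of all genes and 43.5% of all probe sets. The median difference of the 9 genes was 1.14, against 0.18 for all genes.

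S100a6 differed by 4.04 on the log2 scale, S100a10 by 3.73 and S100a13 by 2.06, and S100a1 lay 1.08 toward SC. S100a4 was at or below background in SC, so its difference has only a lower bound, of 2.91-fold. These 5 genes kept their direction and call under each of the 17 alternative settings that held their probe set (the setting limited to single-transcript probe sets left out those of S100a6 and S100a1). S100b differed by 0.32, and its direction turned with the scaling. S100a8 and S100a9 both differed by 1.14 with arrays that overlapped between the tissues.

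**Figure D1:**
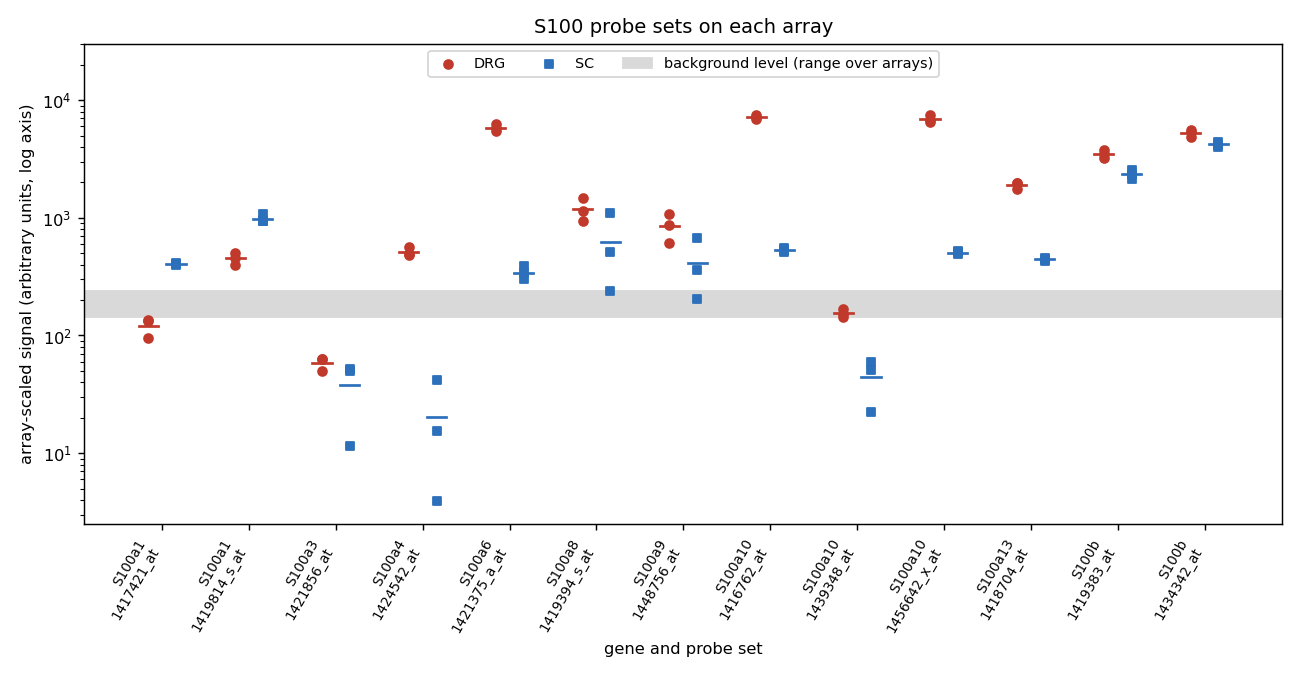
Array-scaled signal (log axis) of each S100 member probe set on the 3 DRG and 3 SC arrays, with the background level shaded. S100a6, S100a4, S100a10 and S100a13 lie higher on all DRG arrays, S100a1 lies higher on all SC arrays, and the arrays of S100a8, S100a9 and S100a3 overlap.

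The promoter sequences of 4 genes of the cluster are shown first because these genes stand near each other and differ by unlike amounts between the tissues: S100a6 differed by 4.04 on the log2 scale and S100a4 was below background in SC, whereas S100a8 and S100a9 differed by 1.14. Each runs 5' to 3' on the gene's own strand from 250 bases before the transcript start to 50 bases after it. Sequences are from RefSeq on mouse build GRCm38.p6. Capitals mark any match, on either strand, to any of 4 motifs, namely TATAAA, the core of the TATA box, TGANTCA, an AP-1 motif, GGGCGG, an Sp1 motif, and ACAAAG, a Sox motif.
S100a6, chr3:90612644-90612943, plus strand: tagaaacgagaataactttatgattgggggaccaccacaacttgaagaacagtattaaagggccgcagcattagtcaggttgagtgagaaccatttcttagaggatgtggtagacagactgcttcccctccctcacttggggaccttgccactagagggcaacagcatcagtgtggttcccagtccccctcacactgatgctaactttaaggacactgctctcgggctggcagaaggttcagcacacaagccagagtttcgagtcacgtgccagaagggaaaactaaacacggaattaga
S100a4, chr3:90603520-90603819, plus strand: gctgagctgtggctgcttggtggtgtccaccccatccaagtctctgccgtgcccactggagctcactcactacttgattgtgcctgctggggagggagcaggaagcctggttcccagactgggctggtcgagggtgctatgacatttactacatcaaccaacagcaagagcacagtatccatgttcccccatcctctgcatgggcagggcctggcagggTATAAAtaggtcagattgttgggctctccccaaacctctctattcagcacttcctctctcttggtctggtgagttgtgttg
S100a8, chr3:90668821-90669120, plus strand: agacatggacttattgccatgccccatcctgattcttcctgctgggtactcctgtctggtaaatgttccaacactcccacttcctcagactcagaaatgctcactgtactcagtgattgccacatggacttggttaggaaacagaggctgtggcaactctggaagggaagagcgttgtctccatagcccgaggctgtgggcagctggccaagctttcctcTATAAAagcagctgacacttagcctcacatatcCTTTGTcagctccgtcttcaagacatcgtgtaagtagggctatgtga
S100a9, chr3:90695672-90695971, minus strand: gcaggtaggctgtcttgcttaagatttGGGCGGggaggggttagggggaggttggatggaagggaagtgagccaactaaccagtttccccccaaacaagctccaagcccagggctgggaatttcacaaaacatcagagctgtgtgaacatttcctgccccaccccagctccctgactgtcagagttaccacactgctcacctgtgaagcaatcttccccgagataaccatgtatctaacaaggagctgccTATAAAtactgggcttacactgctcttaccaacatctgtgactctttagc

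RefSeq windows were at hand for 9 of the 10 genes, 12 windows in all, of which 4 belonged to S100a3. TATAAA stood in 4 of the 12 windows, those of S100a4, S100a8, S100a9 and 1 window of S100a3, and in 13.6% of all 32851 mouse windows of this length. In S100a4 its first base lay at -31 and in S100a8 at -30 from the start, whereas in S100a9 it lay at position 1, the start itself. TGANTCA stood in 1 of the 12 windows, that of S100a11, and in 7.81% of all windows. GGGCGG stood in 3 of the 12, against 35.7% of all windows, and ACAAAG in 2 of the 12, against 18.7%. The S100a6 window held none of these motifs. No motif searched overlapped another in the windows printed, and a match is a match of letters only.

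In order along chromosome 3, RefSeq lists S100a1, S100a13, S100a14, S100a16, S100a3, S100a2, S100a4, S100a5, S100a6, S100a7a, S100a8, S100a9, S100a7l2, S100a11 and S100a10, while S100b lies on chromosome 10. Neighbouring genes did not all share a direction. S100a4 and S100a6 were higher in DRG, and S100a5 between them was not above background in either tissue. S100a13 was higher in DRG and its neighbour S100a1 higher in SC.

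S100a10, also called p11, is the member whose loops have lost calcium binding, and it forms a fixed complex with annexin A2. Its brightest probe set 1416762_at gave signals of 6937, 7214 and 7546 in DRG, against 532, 508 and 553 in SC. All DRG arrays lay far above all SC arrays, and both tissues were above background. The means were 7232 ± 304 in DRG and 531 ± 22.2 in SC (SD, n = 3 each), a difference of 3.73 (SE 0.07, limma's adjusted p = 3.79e-09) or 13.2-fold. Arrays of whole tissue cannot tell fewer cells of a type from less RNA per cell, for this gene or for the others.

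A second S100a10 probe set, 1456642_x_at, gave 7503, 6467 and 6743 in DRG, against 488, 512 and 520 in SC. Its difference of 3.72 (SE 0.08) was the same in size and call (limma's adjusted p = 5.17e-09). The third S100a10 probe set, 1439348_at, gave 153, 145 and 169 in DRG and 22.2, 51.0 and 59.3 in SC. It was not above background in either tissue, and its smaller difference of 1.57 (SE 0.28, limma's adjusted p = 0.00179) is given for completeness. The 3 probe sets agreed in direction.

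S100a6, known as calcyclin, is found in many dividing and in some neuronal and mesenchymal cells and binds Cacybp, a protein of ubiquitin ligase complexes. Its probe set gave 5830, 5439 and 6268 in DRG, against 337, 302 and 386 in SC. The tissues were widely separated on every array. S100a6 averaged 5845 ± 415 in DRG and 342 ± 42.2 in SC (SD, n = 3 each), a difference of 4.04 (SE 0.10, limma's adjusted p = 1.07e-08) or 16.4-fold. By the size of this difference it ranked 35 among the 18187 genes in the direction of DRG.

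S100a4, called metastasin because it was described in metastatic tumour cells, is common in fibroblasts and immune cells and binds the heavy chain of non-muscle myosin. It gave 480, 492 and 568 in DRG, against 41.8, 3.95 and 15.3 in SC. All DRG arrays were above background and no SC array was. Its means were 513 ± 47.7 in DRG and 20.4 ± 19.4 in SC (SD, n = 3 each). Since SC lay below background, the fold is at least 2.91 toward DRG. The fitted difference was 4.00 (SE 0.34, limma's adjusted p = 1.55e-05), a size that rests on the pseudocount and ranged from 2.80 with a pseudocount of 64 to 5.23 with log2 of the deposited ratio.

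S100a13 takes part in the release of fibroblast growth factor 1, a protein without a signal peptide, from stressed cells. It gave 1980, 1752 and 1987 in DRG, against 447, 426 and 458 in SC. The ranges of the tissues were far apart and both tissues were above background. S100a13 averaged 1907 ± 134 in DRG and 444 ± 15.9 in SC (SD, n = 3 each), a difference of 2.06 (SE 0.08, limma's adjusted p = 9.9e-08) or 4.18-fold. It ranked 422 of the 18187 genes toward DRG.

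S100a1 is best known from heart and skeletal muscle, where it binds ryanodine receptors, and it also occurs in neurons and glia. Its brightest probe set 1419814_s_at gave 458, 398 and 504 in DRG, against 1068, 932 and 931 in SC. Every SC array was higher than every DRG array. The means were 453 ± 53.3 in DRG and 977 ± 78.9 in SC (SD, n = 3 each), a difference of -1.08 (SE 0.10, limma's adjusted p = 3.12e-05), or 2.12-fold higher in SC. The other S100a1 probe set, 1417421_at, gave 135, 134 and 94.9 in DRG and 412, 394 and 405 in SC. On this probe set no DRG array was above background, and with a difference of -1.63 (SE 0.14, limma's adjusted p = 1.96e-05) S100a1 was higher in SC by at least 1.87-fold.

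S100a1 and S100a13 are transcribed away from each other, from starts with 104 bases between them on chromosome 3, at 90514330 on the minus strand and 90514435 on the plus strand (GRCm38.p6). Their promoter windows share 204 bases, and the bases between the starts are 58.7% G or C. The window of S100a13 is printed because this short stretch lies before a pair of genes that differ in opposite directions, by -1.08 for S100a1 and 2.06 for S100a13. Capitals mark the bases between the 2 starts.
S100a13, chr3:90514185-90514484, plus strand: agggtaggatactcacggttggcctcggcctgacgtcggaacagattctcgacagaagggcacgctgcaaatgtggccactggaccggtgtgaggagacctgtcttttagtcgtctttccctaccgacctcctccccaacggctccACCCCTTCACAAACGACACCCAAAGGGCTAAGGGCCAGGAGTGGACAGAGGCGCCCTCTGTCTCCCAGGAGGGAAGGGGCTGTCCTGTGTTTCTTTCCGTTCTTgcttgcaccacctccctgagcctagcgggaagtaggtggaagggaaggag

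None of the 4 motifs was found in the windows of S100a1 or S100a13.

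S100b had 2 probe sets, both above background on all arrays, and its small difference depended on the scaling. The brighter, 1434342_at, gave 5315, 4870 and 5590 in DRG, against 4026, 4120 and 4447 in SC. The DRG arrays were all higher, by less than the separation seen for the genes above. Its means were 5258 ± 363 in DRG and 4198 ± 221 in SC (SD, n = 3 each), a difference of 0.32 (SE 0.08, limma's adjusted p = 0.0121) or 1.25-fold. Without DRG replicate 3 the difference was 0.28 and the call was lost (limma's adjusted p = 0.0562).

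After quantile normalization the same S100b probe set differed by -0.24, called higher in SC (limma's adjusted p = 0.0331), and before the authors' array scaling it differed by -0.05 and was not called (limma's adjusted p = 0.649). The other S100b probe set, 1419383_at, gave 3805, 3198 and 3461 in DRG, against 2541, 2340 and 2140 in SC. It too was higher on all DRG arrays with the deposited scaling, by 0.57 (SE 0.09, limma's adjusted p = 0.000919) or 1.49-fold. This probe set differed by -0.03 after quantile normalization, and by 0.20 on signals without the array scaling, and was called under neither (limma's adjusted p = 0.82 and 0.083). The data therefore give no direction for S100b that holds under all 3 scalings.

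**Figure D2:**
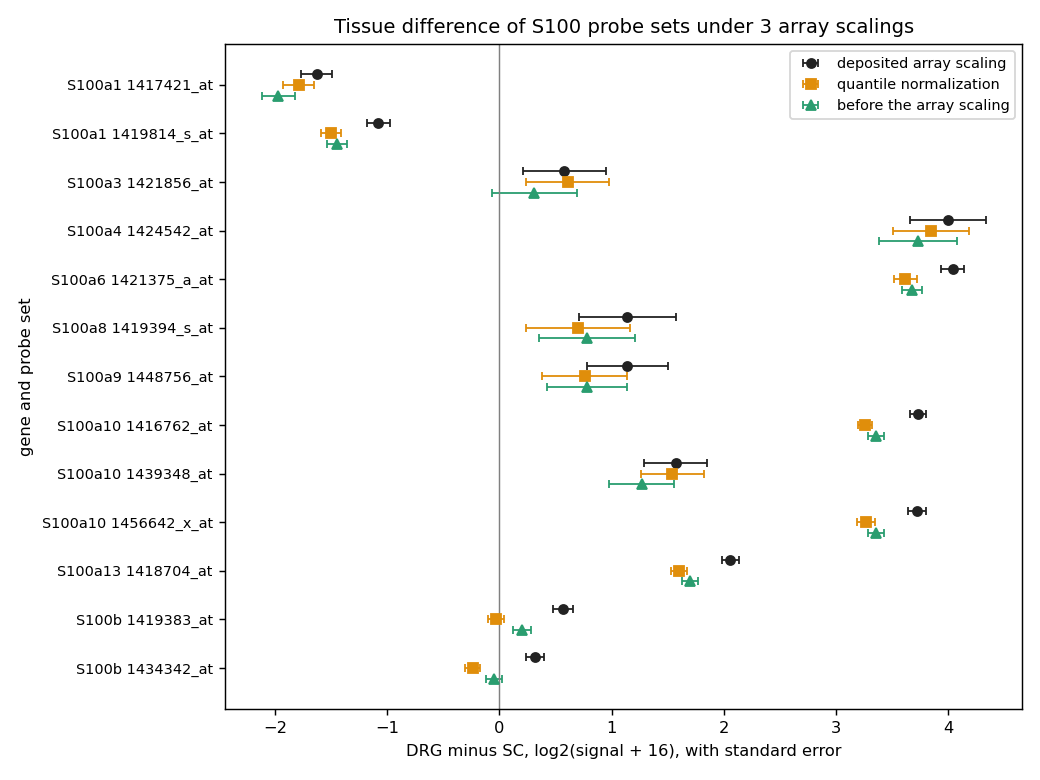
DRG minus SC difference (log2) of each S100 member probe set with the deposited scaling, after quantile normalization, and without the authors' array scaling, with bars of 1 SE from limma. Under the other scalings most points lie nearer to SC than with the deposited scaling, which turns the sign of S100b 1434342_at (0.32, -0.24 and -0.05) and leaves S100a10 1416762_at at 3.26 or more.

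Most other members also shifted toward SC under these scalings, and S100a9 lost its call. The larger differences of S100a10, S100a6, S100a4 and S100a13, and that of S100a1, kept their direction. Quantile normalization and the signals before array scaling gave 3.26 and 3.36 for S100a10, 3.62 and 3.68 for S100a6, 3.85 and 3.73 for S100a4, 1.60 and 1.70 for S100a13 and -1.50 and -1.45 for S100a1, each still called. Under quantile normalization 4 member genes were called toward DRG and 2 toward SC, and before the array scaling 4 and 1. Of all genes, 20.5% were then called toward DRG and 16% toward SC with quantile normalization, and 19.3% and 19.7% before the array scaling.

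Glial markers moved with these tissues as lists. Of the 16 measured Schwann and satellite cell markers, 12 were called toward DRG and 2 toward SC, beside 31.8% and 9.69% of all genes. The summed signal of these markers was 31526 to 31891 in DRG and 11226 to 11849 in SC. All 16 measured astrocyte markers were higher in SC, with sums of 4459 to 4545 in DRG and 37236 to 40689 in SC. The part of either cell type in the S100b signal was not tested.

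S100a8 and S100a9 are the subunits of calprotectin, which neutrophils and monocytes hold in large amounts and which acts outside the cell on Tlr4 and on Ager, the receptor known as RAGE. S100a8 gave 1464, 942 and 1148 in DRG, against 517, 241 and 1101 in SC. SC replicate 3 lay within the DRG range, while the other SC arrays lay below it. S100a8 averaged 1185 ± 263 in DRG and 620 ± 439 in SC (SD, n = 3 each), a difference of 1.14 (SE 0.43) that was not called (limma's adjusted p = 0.0741). Without SC replicate 3 the difference of S100a8 was 1.68 and was called (limma's adjusted p = 0.00321).

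S100a9 gave 1077, 611 and 864 in DRG, against 359, 203 and 669 in SC. Again SC replicate 3 lay within the DRG range. S100a9 averaged 851 ± 234 in DRG and 410 ± 237 in SC (SD, n = 3 each), a difference of 1.14 (SE 0.36) that was called (limma's adjusted p = 0.037). That call was lost when DRG replicate 1, DRG replicate 3, SC replicate 1 or SC replicate 2 was left out (limma's adjusted p = 0.133, 0.0969, 0.0949 and 0.0980) and under both other scalings (limma's adjusted p = 0.185 with quantile normalization, 0.128 before the array scaling).

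The pair varied from array to array more than the members S100a1, S100a6, S100a10, S100a13 and S100b, which were above background in both tissues. The coefficient of variation was 22.2% in DRG and 70.9% in SC for S100a8, and 27.4% in DRG and 57.7% in SC for S100a9. The highest SC array was 4.58 times the lowest for S100a8 and 3.29 times for S100a9. The signal of the S100a8 probe set over that of the S100a9 probe set stayed between 1.33 and 1.54 in DRG and between 1.18 and 1.65 in SC. Being a ratio of different probe sets, it does not give a ratio of transcripts.

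Neutrophil markers were read beside this pair. Of 18 measured, 4 were higher in DRG, 1 was higher in SC and 13 were not called, where 31.8% and 9.69% of all genes were called. The median difference of the markers was 0.17, against 0.18 for all genes, and 13 markers were above background on no array. Their summed signal was 1988 to 2725 in DRG and 1318 to 2230 in SC. The 5 above background on at least 1 array were Ngp, Lcn2, Mmp9, Cxcr4 and Chil3. Ngp, which encodes a neutrophil granule protein, gave 787, 505 and 578 in DRG, against 282, 179 and 506 in SC, with the arrays of the tissues overlapping and a difference of 1.01 (limma's adjusted p = 0.033). As with S100a9, the Ngp call was lost in 8 of 17 alternatives, with an adjusted p of up to 0.161.

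Chil3, a chitinase-like protein of myeloid cells, gave 256, 119 and 136 in DRG and 81.3, 30.7 and 132 in SC, and its difference of 1.02 was not called. Ngp was highest in replicate 3 and lowest in replicate 2 among SC arrays, and highest in replicate 1 and lowest in replicate 2 among DRG arrays, as S100a8 and S100a9 were. Lcn2, a secreted protein of neutrophils and other cells, gave 219, 138 and 182 in DRG and 132, 167 and 231 in SC, with 2 SC arrays above background. The highest SC array of Lcn2 was also replicate 3, but its lowest was replicate 1, unlike that of S100a8 and S100a9. No SC array was above background for Chil3 or Cxcr4, and the SC arrays of Mmp9 were nearly equal (204, 207 and 217), so their order is not read. The other 2 marker genes with a call above background went opposite ways, Cxcr4 toward DRG by at least 1.21-fold and Mmp9 by -0.81 toward SC. Camp and Elane were also called toward DRG, with no array above background.

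Of 12 red cell markers listed, 6 were measured, 1 was higher in DRG, and none was above background on any array. The globin genes Hbb-b1 and Hbb-bt were among those not measured, so blood content cannot be read from this list. The median difference of this list was 0.19. Of 14 measured macrophage and microglia markers, 5 were called toward DRG and 6 toward SC. For both lists the shares of all genes were 31.8% toward DRG and 9.69% toward SC, with a median of 0.18. The part of blood or myeloid cells in the S100a8 and S100a9 signals was not tested.

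**Figure D3:**
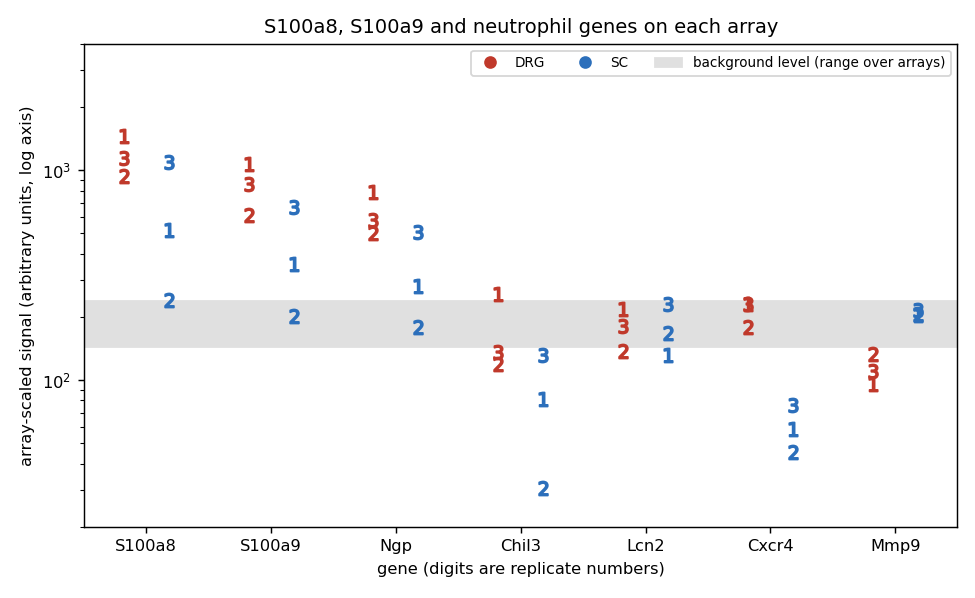
Array-scaled signal (log axis) of S100a8, S100a9 and the 5 neutrophil markers above background on at least 1 array, for the 3 DRG and 3 SC arrays. SC replicate 3 is the highest SC array for S100a8 (1101), S100a9 (669), Ngp (506) and Lcn2 (231). The lowest SC array is replicate 2 for the first 3 of these genes and replicate 1 for Lcn2. The SC arrays of Chil3 and Cxcr4 are not above background and those of Mmp9 nearly coincide.

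S100a3, a protein of the hair cuticle, gave 50.2, 62.9 and 63.0 in DRG and 52.4, 49.9 and 11.6 in SC. No array was above background, and the arrays of the tissues overlapped. The difference of 0.58 (SE 0.37) was not called (limma's adjusted p = 0.295), so S100a3 was not detectable here in either tissue.

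The rest of the S100 and fused S100 family gave little signal. Of 14 further genes, 9 were measured and 8 of them were above background on no array. S100a16 was the exception, with 1237, 1131 and 1175 in DRG and 1419, 1350 and 1315 in SC. Its SC arrays were all slightly higher, and the difference of -0.20 (SE 0.07) was not called with the deposited scaling (limma's adjusted p = 0.0520). After quantile normalization S100a16 differed by -0.75 and was called higher in SC (limma's adjusted p = 1.4e-05), and before the array scaling it differed by -0.57.

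S100a7l2 was called higher in DRG by 0.75 (limma's adjusted p = 0.0421), with means of 16.3 in DRG and 2.67 in SC that lie far below background, and lost the call in 9 of 16 alternatives (limma's adjusted p up to 0.118). S100a5, S100a14, S100g, Tchh, Tchhl1, Rptn and Hrnr were not called, with differences between -0.68 for Tchh and 0.44 for Hrnr.

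Receptors and surface binding proteins for S100 proteins were read next. Of 13 measured, 6 were higher in DRG, 1 was higher in SC and 6 were not called, with a median of 0.33 against 0.18 for all genes, of which 31.8% were called toward DRG and 9.69% toward SC. Mcam, an adhesion molecule that binds S100a8 and S100a9, gave 1187, 1144 and 1447 in DRG, against 279, 413 and 352 in SC, a difference of 1.82 (limma's adjusted p = 9.47e-06). Alcam, a related adhesion molecule, was higher in DRG by 1.23, Adam10 by 0.57 and Bsg by 0.33. The Adam10 call was lost after quantile normalization, before the array scaling and with the mean of its probe sets, where its difference was between 0.05 and 0.20. The Bsg call was also lost before the array scaling, where the 3 receptors called toward DRG were Mcam, Alcam and Tlr4.

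Tlr4 (1.21), Cd36 (0.90) and Cd33 (-1.20) were also called, with all but 1 array at or below background. The call of Cd36 was lost in 4 of 15 alternatives and that of Cd33 in 10 of 16. Ager gave 49.2, 73.5 and 58.5 in DRG and 36.0, 90.7 and 49.6 in SC, all below background, with a difference of 0.09 that was not called (limma's adjusted p = 0.881). The 2 classical receptors of calprotectin therefore gave no signal above background in either tissue. Before the array scaling 3 receptors were called toward DRG and 1 toward SC, and after quantile normalization 4 and 2.

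Of 42 measured binding partners of S100 proteins, 28 were higher in DRG, 4 higher in SC and 10 not called, beside the 31.8% and 9.69% of all genes. Their median was 0.89 against 0.18 for all genes. After quantile normalization the counts were 23 and 8, beside 20.5% and 16% of all genes, and before the array scaling 24 and 9, beside 19.3% and 19.7%. The list was put together with earlier results of these data known.

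With the deposited scaling and the brightest probe sets, the 3 largest differences toward DRG among the partners were those of Scn10a, Anxa2 and Ahnak. All 3 are tied to S100a10, and Scn10a is also on the list of sensory neuron markers. Anxa2, the annexin that S100a10 binds, gave 10703, 10338 and 10147 in DRG, against 634, 578 and 616 in SC, a difference of 4.06 (limma's adjusted p = 2.11e-09). Ahnak, a giant scaffold that binds this complex, gave 3871, 3431 and 3938 in DRG, against 467, 359 and 454 in SC, a difference of 3.09 (limma's adjusted p = 6.32e-08). Both were thus separated between the tissues on all arrays, as were S100a10 and 51.7% of all genes. With the mean of its probe sets Anxa2 differed by 2.04, below Vim, another partner, which differed by 2.33 or more under each alternative. The ranking of Anxa2 therefore rests on its brightest probe set.

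Scn10a encodes the sodium channel Nav1.8 of nociceptors, which S100a10 helps to the membrane. It gave 1562, 1569 and 1634 in DRG, against 7.87, 13.1 and 7.87 in SC, so it was at least 9.04-fold higher in DRG (limma's adjusted p = 7.45e-09). Other cargo of S100a10 was mixed. The serotonin receptor gene Htr1b was higher in DRG by 1.65 and Htr4, below background in SC, by at least 1.35-fold, the acid-sensing channel gene Asic1 was not called (0.09, limma's adjusted p = 0.47), and the potassium channel gene Kcnk3 was called toward SC (-1.03) with 1 array above background, a call lost in 10 of 17 alternatives (limma's adjusted p up to 0.133). Plat, the plasminogen activator whose activity S100a10 raises at the cell surface, gave 278, 251 and 306 in DRG and 470, 460 and 475 in SC, a difference of -0.72 toward SC (limma's adjusted p = 0.000316).

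For the other members, Cacybp, the partner of S100a6, averaged 2138 ± 172 in DRG and 1323 ± 81.7 in SC (SD, n = 3 each) and was higher in DRG by 0.69, or 0.11 and not called after quantile normalization (limma's adjusted p = 0.281). Sugt1, another S100a6 partner, was higher in DRG by 1.15, and the annexin genes Anxa6 and Anxa5 by 1.71 and 2.34. Myh9, the myosin that S100a4 binds, gave 2086, 2123 and 2105 in DRG, against 446, 408 and 494 in SC, a difference of 2.19 (limma's adjusted p = 9.61e-08). Fgf1 and Syt1, which leave the cell in a complex with S100a13, were higher in DRG by 1.32 and 1.31.

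Ryr2, a ryanodine receptor that S100a1 binds, averaged 404 ± 25.6 in DRG and 577 ± 19.0 in SC (SD, n = 3 each). It was called toward SC by -0.50 (limma's adjusted p = 0.00123). The ryanodine receptor Ryr1 was below background on all arrays and not called (0.05). Also on the partner list, Atp2a2 was not called (-0.03), and Pgm1 and Capza1 were higher in DRG by 0.46 and 0.96. The intermediate filament partners of S100b went opposite ways. Vim gave 6280, 6309 and 6302 in DRG, against 902, 834 and 827 in SC, a difference of 2.86, and Tagln2, an actin-binding protein of the list, was higher in DRG by 2.75. Gfap gave 60, 107 and 105 in DRG, against 7082, 5905 and 6716 in SC, so its signal was higher in SC by at least 30.3-fold (limma's adjusted p = 2.46e-08).

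**Figure D4:**
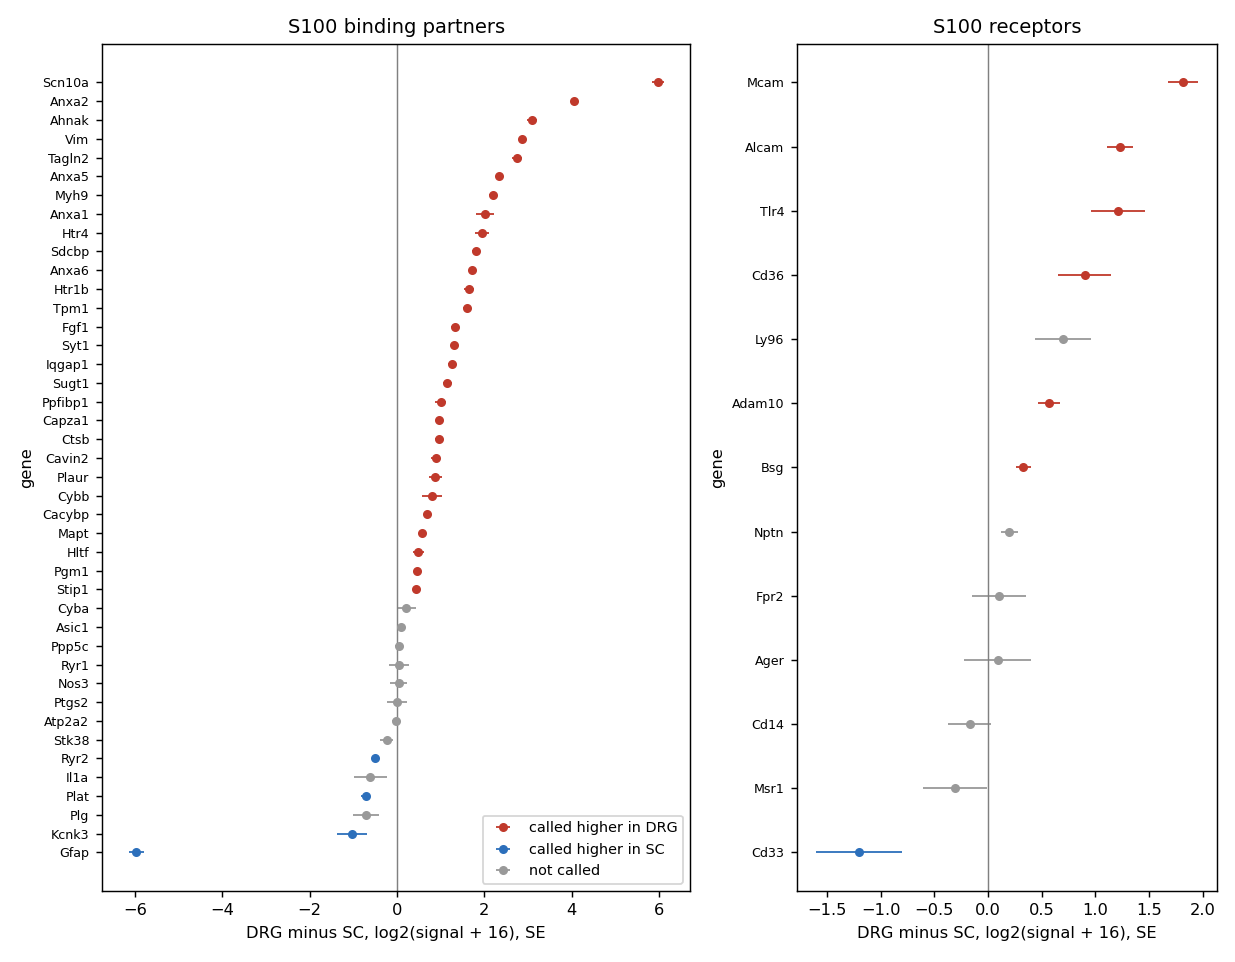
DRG minus SC difference (log2, bars of 1 SE from limma) of S100 receptors and binding partners, with called and uncalled genes marked. Scn10a, Anxa2 and Ahnak lie furthest toward DRG at 5.98, 4.06 and 3.09, and Gfap lies furthest toward SC at -5.98. Scn10a in SC and Gfap in DRG were below background, so these fitted sizes are not exact.

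Other cells of the ganglion were read beside the DRG-high members. The 15 sensory neuron markers had a median difference of 3.94 and a summed signal of 79991 to 83629 in DRG, against 11581 to 12171 in SC. The largest SC means were those of Nefh (4521) and Uchl1 (3047), whereas others, such as Avil, Pirt, P2rx3 and Scn10a, were above background on no SC array. Of 20 fibroblast and perineurium markers, 16 were called toward DRG and 1 toward SC, with a median of 1.93 and sums of 34657 to 36420 in DRG, against 11092 to 12163 in SC. Thy1 gave the largest part of these sums, with means of 8039 in DRG and 4796 in SC. Both lists lay toward DRG, as S100a4, S100a6, S100a10 and S100a13 did. So did the Schwann and satellite cell list, with 12 of 16 markers called toward DRG and a median of 1.28. The part of any of these cell types in the signals of the 4 members was not tested. Markers of vessels (13 measured, 6 higher in DRG and 2 in SC), of cartilage, fat and muscle (18, with 4 and 2) and of dendritic, epidermal and pigment cells (10, with 2 and 0) had medians of 0.24, -0.08 and 0.15. Beside the lists of this paragraph, 31.8% of all genes were called toward DRG and 9.69% toward SC, with a median of 0.18.

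The genes whose pattern over the 6 arrays was nearest to each of the 3 members with the largest fitted differences were sought among 8428 genes, as the root mean square distance of log2(signal + 16) after centring each gene on its own mean. Nearest to S100a6 were Bcam, a laminin-binding adhesion molecule (distance 0.04, difference 3.99), S1pr3 (0.09) and Dgkh (0.10). Nearest to S100a10 were Plxnc1 (0.08), Dock11 (0.08) and Smoc2 (0.09). Nearest to S100a4, whose SC arrays were below background and scattered, were Slc7a7 (0.27), Scn7a (0.30) and Acpp (0.33). With 6 arrays in 2 groups, such distances reflect mostly the size of the difference between the tissues.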

How the data were processed

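RNA of 3 DRG and 3 SC pools was measured on 3' expression arrays with a biotin label. MAS5 is named, without a version, per the submitters' processing notes. The authors deposited linear ratios whose making is not stated in the labels. In 91.8% of probe sets the 6 ratios had a median of 1 within 1e-05, so a ratio was read as an array-scaled signal over the median of its probe set. The tests had been written for signals, so signals were recovered for 45079 of 45101 probe sets. They were the smallest multiples that put all 6 values on MAS5 steps of 0.1. For 3701 probe sets with a median under 1, no multiple was sought and a fixed divisor was assumed. The 22 probe sets not recovered were left out, as were 64 controls. A recovered signal can be off by a factor common to its 6 arrays, which moves a level but hardly a difference. Recovery and fit were tested on simulated data. The deposited array scaling was kept. It divides the recovered signals by relative factors of 0.861 to 0.912 on DRG arrays and 1.127 to 1.147 on SC arrays. Every probe set is thereby moved toward DRG.

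Probe sets were named from the platform annotation (1 gene for 34945, several for 932, none in the table for 9160), matched to RefSeq by Entrez identifier, which changed no symbol.

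The test was limma 3.58.1 (R 4.3.3), lmFit and eBayes with an intensity trend on log2(signal + 16), with adjustment over 45015 probe sets. With 3 arrays per tissue, their number limits the precision, and nothing beyond the word independent says how the pools were made. Python 3.11.15 served for the recovery (with numba 0.67.0), the tables (with pandas 2.3.3 and numpy 2.4.6) and the figures (with matplotlib 3.10.9).

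Named are all member probe sets, every other measured S100 family gene, up to 5 called receptors or partners with the largest difference in each direction, and the nearest patterns. Of the marker lists, the called neutrophil markers are named and the other lists are given as counts. Other receptors, partners and neutrophil markers were added after their values were seen. The members and the lists were chosen with earlier results of these data known. No alternative was added to the 17 planned ones.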

Additional observations from a re-analysis of the deposited data

Results flagged for a closer look

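The probe set that names S100a11 together with 2 other genes, the pseudogene S100a11-ps and the gene model Gm12854, was left out of the comparisons and carried a clear signal. It gave 2543, 2267 and 2573 in DRG, against 274, 276 and 289 in SC, with means of 2461 ± 169 in DRG and 279 ± 7.9 in SC (SD, n = 3 each). All DRG arrays were higher than all SC arrays, and both tissues were above background. The difference was 3.07 (SE 0.08, limma's adjusted p = 1.28e-08). The signal cannot be given to any 1 of the 3 genes from these arrays.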

How the results depend on the processing

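In all, 17 alternatives were run. Higher in SC, 2 member genes were called after quantile normalization (1 as reported), and 1 member probe set with single-transcript probe sets (2 as reported). Of all probe sets, 6003 were higher in DRG before the array scaling and 6721 after quantile normalization (10197 as reported), and 8963 were higher in SC before the array scaling (4402 as reported). Other S100 family genes higher in DRG were 0, in place of 1, before the array scaling, without the intensity trend, among probe sets above the median signal and with a pseudocount of 64, and 1 in place of 0 was higher in SC before the array scaling, after quantile normalization, with the brightest or the mean probe set of a gene, above the median signal and with a pseudocount of 64. Receptors higher in DRG were 3, in place of 6, before the array scaling and with single-transcript probe sets. Receptors higher in SC were 2 after quantile normalization and 0 (1 as reported) with log2 of the deposited ratio, without the trend, above the median signal, with a pseudocount of 1 and with single-transcript probe sets. Partners higher in SC were 9 before the array scaling and 8 after quantile normalization (4 as reported).

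Some differences turned sign. Before the array scaling S100b 1434342_at was at -0.05, Asic1 at -0.27, Lcn2 at -0.31, Ager at -0.20 and Tchhl1 at -0.01. After quantile normalization S100b 1434342_at was at -0.24, S100b 1419383_at at -0.03, Asic1 at -0.30 and Lcn2 at -0.08. Over the settings that leave out 1 array, Lcn2 ranged from -0.14 to 0.23, Ager from -0.14 to 0.38, Tchhl1 from -0.05 to 0.42, Rptn from -0.16 to 0.12 and S100a5 from -0.05 to 0.04. In those settings 4 to 7 member genes and 7 to 10 member probe sets were called higher in DRG (4 genes without DRG replicate 3, 7 without SC replicate 3), and 1 gene and 2 probe sets higher in SC. Of the other S100 family, 0 to 1 were called in either direction, of the receptors 5 to 7 higher in DRG and 0 to 1 higher in SC, of the partners 27 to 28 and 3 to 5, and of all probe sets 9034 to 10116 and 3525 to 4137. The fitted difference of S100a4 ranged from 2.80 to 5.23, that of Scn10a from 4.49 to 7.41 and that of Anxa2 from 2.04 to 4.09, all still called. With quantile normalization or probe sets averaged per gene, the lowest differences were 0.58 for Fgf1, 0.62 for Syt1, 0.68 for Sugt1, 0.80 for Alcam, 0.86 for Htr1b and 1.42 for Myh9. For S100a8 the difference ranged from 0.62 to 1.68 over all alternatives, with limma's adjusted p from 0.00321 to 0.323, and the adjusted p of S100a9 ranged from 0.00314 to 0.185. The call of S100a9 and that of the brighter S100b probe set were also lost with log2 of the deposited ratio (adjusted p = 0.123 and 0.0721) and without the intensity trend (0.0994 and 0.0821), and S100a8 was called among probe sets above the median signal (0.0291). The cause of these shifts was not tested.

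The samples of both tissues carry the numbers 1 to 3, and the labels do not say whether these pair the samples. Deviations of same-numbered samples correlated at 0.007, -0.006 and 0.056, which cannot tell whether same-numbered pools came from the same mice. The fit with the number as a replicate block called 9967 probe sets higher in DRG and 4176 higher in SC. With the replicate block S100a8 was called (limma's adjusted p = 0.0222), 0 other S100 family genes were higher in DRG and 0 receptors higher in SC. Signals near background limit what can be said of S100a3, of S100a4 in SC and of S100a1 1417421_at in DRG.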
